A study of Mus musculus with 6 samples.

Results

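A set of 9 genes used as readouts of IL-4 and IL-13 signalling and of alternative activation was followed in mouse eosinophils given the alarmin cytokine IL-33. The members are the receptor genes Il4ra and Il13ra1, the effector genes Tgm2, Lgals3, Arg1 and Arg2, and the macrophage-type products Chi3l3, Retnla and Mrc1. They were found by gene symbol among the 23420 genes of the deposited table, which lists the chitinase-like protein Ym1 (current symbol Chil3) as Chi3l3. Of the 9, 7 had a normalized count of at least 10 in at least 3 libraries and were tested with the other genes that met this minimum, 10544 in all. Il13ra1 and Arg1 did not reach it, and their values are given without a test.

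The cells were grown from wild-type mouse bone marrow, with stem cell factor (SCF) and FLT3 ligand (FLT3-L), each at 100 ng/mL, and then with IL-5 at 20 ng/mL. On day 14, after removal of dead cells, the cells were treated for 3 hours, in 3 libraries with 2.5 ng/mL of IL-33 and in the other 3 with phosphate-buffered saline, PBS. IL-5 was thus part of the culture of both groups, and the labels name no treatment with IL-4 or IL-13. Nothing in the labels ties the libraries of a group to different mice or cultures, and the p-values therefore reflect a spread between libraries that may be technical. Values of libraries are listed below in the order of replicates 1, 2 and 3 of each group.

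IL-4 and IL-13 signal through receptors that share the IL-4 receptor alpha chain, the product of Il4ra. With the common gamma chain (Il2rg) it binds IL-4, and with the IL-13 receptor alpha 1 chain (Il13ra1) it binds IL-4 or IL-13. The receptors activate JAK kinases and the transcription factor STAT6, which in macrophages induces Arg1, Chi3l3, Retnla, Mrc1 and Tgm2, the usual markers of alternative activation. Eosinophils respond to IL-4 and IL-13, secrete IL-4 themselves, and carry the IL-33 receptor ST2.

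The stretches just upstream of the RefSeq start sites of 4 members are shown for how they differ in CpG content, from a CpG-rich one at Il4ra to CpG-poor ones at Retnla and Chi3l3. Il4ra had 25 CpG in the 300 bases searched, Lgals3 18, Chi3l3 3 and Retnla 2. RefSeq promoters of GRCm38.p6, which run from 250 bases before to 50 bases after a gene's start, matched 6 of the 9 members by symbol. They were searched on both strands for TTCNNNNGAA, the spacing that STAT6 prefers, for TTCNNNGAA, the spacing of other STAT factors, and for the NF-kB consensus. Matches are in capitals, positions count from the start site, and the 250 upstream bases are printed.
Il4ra: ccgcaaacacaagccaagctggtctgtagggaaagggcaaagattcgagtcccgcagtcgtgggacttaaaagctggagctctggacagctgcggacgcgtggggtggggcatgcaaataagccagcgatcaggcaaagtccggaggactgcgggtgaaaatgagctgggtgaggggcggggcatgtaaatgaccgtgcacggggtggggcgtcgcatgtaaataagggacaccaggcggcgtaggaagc
Lgals3: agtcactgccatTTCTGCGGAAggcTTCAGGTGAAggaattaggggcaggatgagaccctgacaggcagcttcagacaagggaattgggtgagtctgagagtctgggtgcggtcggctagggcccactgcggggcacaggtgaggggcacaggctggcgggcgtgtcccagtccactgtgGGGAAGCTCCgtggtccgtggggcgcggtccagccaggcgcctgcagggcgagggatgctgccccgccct
Retnla: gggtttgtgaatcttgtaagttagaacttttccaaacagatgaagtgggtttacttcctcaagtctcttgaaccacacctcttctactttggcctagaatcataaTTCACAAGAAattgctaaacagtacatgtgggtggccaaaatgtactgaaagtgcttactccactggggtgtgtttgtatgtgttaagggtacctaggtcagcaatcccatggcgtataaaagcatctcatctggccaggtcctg
Chi3l3: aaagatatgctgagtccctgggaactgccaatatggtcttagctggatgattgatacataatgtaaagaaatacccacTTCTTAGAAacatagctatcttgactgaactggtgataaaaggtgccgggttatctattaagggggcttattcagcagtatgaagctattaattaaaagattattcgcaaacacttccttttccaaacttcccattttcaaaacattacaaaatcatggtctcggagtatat
The stretch of Il4ra is chr7:125552021-125552270 on the plus strand, that of Lgals3 chr14:47373610-47373859 on the plus strand, that of Retnla chr16:48842359-48842608 on the plus strand and that of Chi3l3 chr3:106167565-106167814 on the minus strand. RefSeq and GENCODE vM21 place the starts of Il4ra, Lgals3 and Retnla differently, so that the Lgals3 stretch and part of the Il4ra and Retnla stretches lie inside the GENCODE spans given below. The Lgals3 promoter held TTCTGCGGAA at -238, TTCAGGTGAA at -225 and the NF-kB match GGGAAGCTCC at -70. The Retnla promoter held TTCACAAGAA at -145, and the Chi3l3 promoter held TTCTTAGAA, of the shorter spacing, at -172. In the Il4ra promoter the only match was to the NF-kB consensus, GGAAAGCCCC on the opposite strand, at 21 bases past the start. The promoters of Il13ra1 and Mrc1 held none of these letters. Of 32851 promoters of the same length, 6.95% held TTCNNNNGAA, 8.30% held TTCNNNGAA and 8.46% held the NF-kB consensus, and the matches overlapped nowhere in these 6. A match describes the letters and is no measured binding site.

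As scaled by the authors, Il4ra and Tgm2 rose several-fold within 3 hours of IL-33, Arg2 and Lgals3 rose by smaller amounts, and Chi3l3 fell. Retnla and Mrc1 did not pass the test. Of the 7 tested members 4 were called higher, 1 lower and 2 in neither direction (limma, Benjamini-Hochberg adjusted p under 0.05). Among all tested genes, 17.4% were called higher and 14.4% lower. In 4 of the 7 every IL-33 library lay above every PBS library and in 0 every IL-33 library lay below, against 25.5% and 24.7% of all tested genes. Without IL-33 replicate 1, 5 members were called higher, where 28.3% of all tested genes were. Leaving out IL-33 replicate 3 gave 4 (13.99% of all tested genes), and IL-33 replicate 2 or PBS replicate 1 gave 3 (8.99% and 10.7%). Leaving out PBS replicate 2 or 3 gave 2 (7.60% and 6.70%). Among these fits Chi3l3 was called lower only without IL-33 replicate 1, where 28.2% of all tested genes were. In the other fits 3.36% to 11.49% of all tested genes were called lower. Of the macrophage markers of alternative activation, Arg1 could not be tested, and Retnla was called higher only without IL-33 replicate 1 among the fits run.

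**Figure D1:**
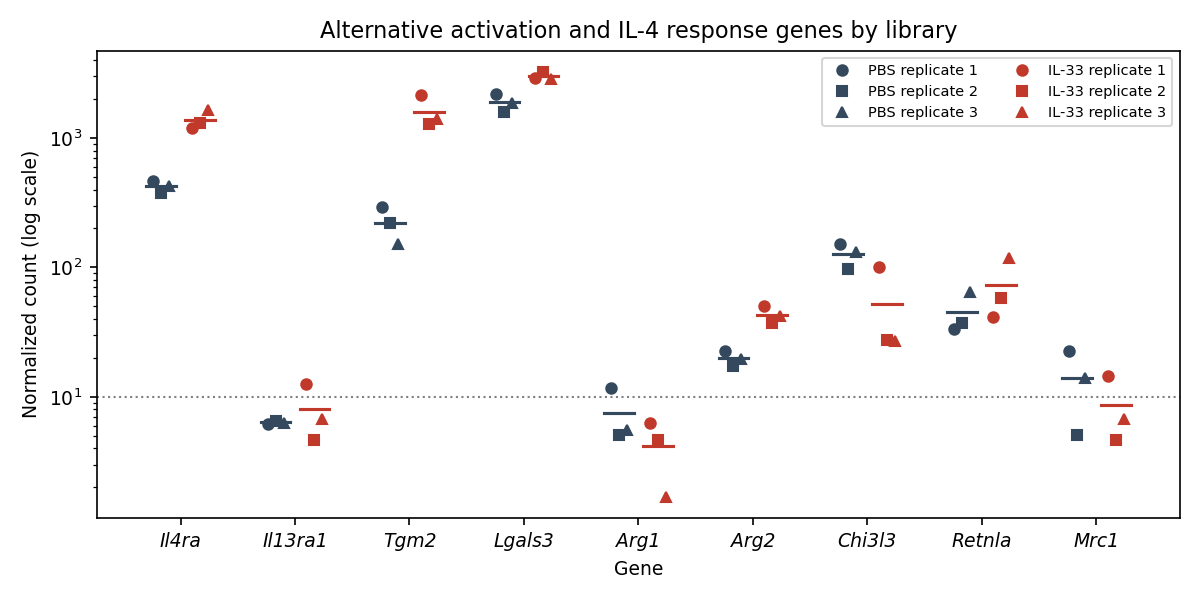
Normalized counts (log scale) of the 9 genes in each of the 3 PBS and 3 IL-33 libraries, with the group mean as a bar and the minimum of 10 for testing as a dotted line. As scaled by the authors, IL-33 values lie above all PBS values for Il4ra, Tgm2, Lgals3 and Arg2, and the groups overlap for Il13ra1, Arg1, Chi3l3, Retnla and Mrc1.

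The libraries differed in depth and in ribosomal RNA. They held 8218303 to 10785521 recovered reads, of which 13.7% to 59.6% fell on Rn45s, the ribosomal RNA precursor gene, leaving 4229504 to 7129435. The share was 24.3%, 59.6% and 54.8% with IL-33 and 24.8%, 23.3% and 13.7% with PBS. IL-33 replicate 1 stood apart from the others of its group, with Pearson r across genes of 0.952 and 0.922 against 0.969 between replicates 2 and 3. Its r with PBS replicates 1, 2 and 3 was 0.941, 0.914 and 0.917, the first of these above its r with IL-33 replicate 3. All 12 eosinophil markers passed the minimum, and 1 was called higher and 10 lower, against 17.4% and 14.4% of all tested genes. Ear2 passed it through the PBS libraries only, which favours a call of lower. The summed normalized counts of these markers were 54287 to 65300 in PBS and 25059 to 35783 in IL-33 libraries, held mostly by Prg2 and Alox15. In bulk RNA, fewer cells of a type and less RNA per cell cannot be told apart.

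Il4ra encodes the chain shared by the receptors for IL-4 and IL-13 (chromosome 7, 125552120 to 125579474, GRCm38, GENCODE vM21). Its normalized counts were 1202, 1304 and 1642 with IL-33 and 466, 376 and 428 with PBS. Every IL-33 library was well above every PBS library, and the spread within a group was small beside the gap. The means were 1383 ± 230 (SD, n = 3) and 423 ± 45.1 (SD, n = 3), a log2 fold change of 1.70 (SE 0.18, limma adjusted p = 0.000751), which is 3.25-fold. Its fold change ranked 435 from the highest of 10544. An antisense gene, Gm44876, overlaps 9.51% of its exonic bases, and whether the counting used strand is not given in the sources used here.

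The other chains of the receptors differed widely in level. Il13ra1, the partner that makes the receptor able to bind IL-13 (chromosome X, 36112110 to 36171259), had 14, 3 and 4 reads with IL-33 and 8, 9 and 9 with PBS. Its normalized counts were 12.6, 4.61 and 6.78 with IL-33 and 6.21, 6.55 and 6.29 with PBS, so that IL-33 replicate 1 was highest and the other IL-33 libraries straddled the PBS values. Relative to reads outside Rn45s, the 21 reads of the IL-33 group came to 1.34 RPM (reads per 1e6; 95% exact Poisson interval 0.827 to 2.04) and the 26 of the PBS group to 1.26 RPM (0.825 to 1.85). These intervals cover counting error only, since the libraries carry no stated molecular identifiers and reads may repeat a molecule. A difference between the groups was not detectable at this depth.

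Il2rg, the common gamma chain, rose with Il4ra: its normalized count was 853 ± 212 (SD, n = 3) with IL-33 and 257 ± 16.8 (SD, n = 3) with PBS, a log2 fold change of 1.70 (SE 0.21, limma adjusted p = 0.00141). Il13ra2, the decoy receptor for IL-13, had 0 reads in all 6 libraries. Over their 36291214 reads outside Rn45s, a limit of 3 reads allows 0.0827 RPM. To compare the chains with each other, reads were divided by exon length and by the library's reads outside Rn45s. On that scale (RPKM), which replaces the authors' scaling, Il2rg was at 53.5 ± 16.1, Il4ra at 34.0 ± 3.70 and Il13ra1 at 0.323 ± 0.182 with IL-33 (SD, n = 3 each). With PBS the levels were 21.4 ± 1.04 for Il2rg, 14.01 ± 1.37 for Il4ra and 0.340 ± 0.0125 for Il13ra1 (SD, n = 3 each). The order was the same in both groups, except that the levels of Il2rg and Il4ra in IL-33 libraries overlapped.

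Ratios within a library do not depend on how libraries were scaled. Per length, Il4ra stood 59.1 to 175 times above Il13ra1 in the IL-33 libraries and 35.5 to 46.4 times in the PBS libraries, without overlap, though Il13ra1 rested on few reads. The ratio of Il4ra to Il2rg was 0.448 to 1.02 with IL-33 and 0.591 to 0.703 with PBS, so the IL-33 libraries spanned the PBS range.

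**Figure D2:**
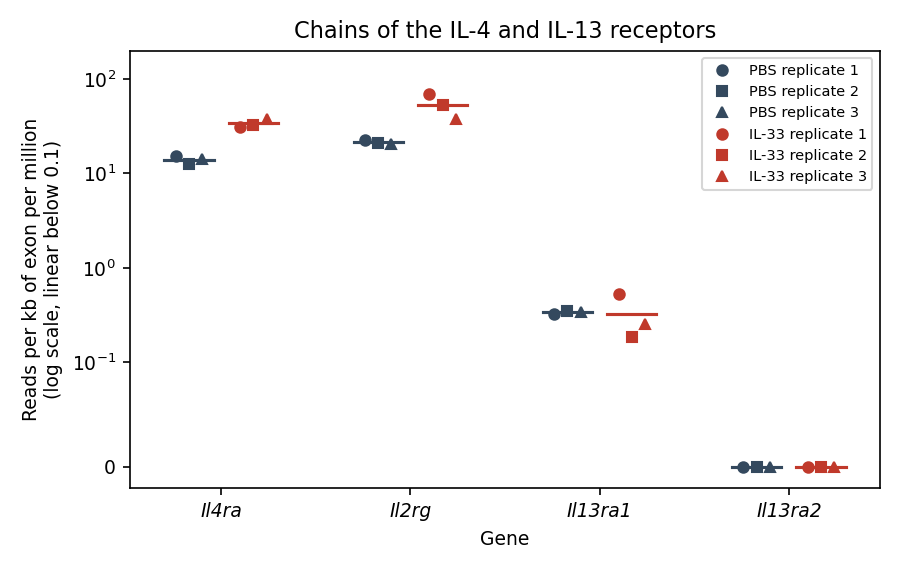
Levels of the receptor chains in reads per kb of exon and depth outside Rn45s (RPKM) in each library (log scale, linear below 0.1), with the group mean as a bar. Il4ra and Il2rg are higher in every IL-33 library than in every PBS library, Il13ra1 overlaps at a level far below both, and Il13ra2 is at 0 throughout.

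Tgm2 had the highest fold change of the 7 tested members as scaled by the authors. It encodes transglutaminase 2, an enzyme that crosslinks proteins and that IL-4 induces in macrophages (chromosome 2, 158116402 to 158146436). Normalized counts of Tgm2 were 2135, 1272 and 1400 with IL-33 and 294, 219 and 153 with PBS. The lowest IL-33 library was several times the highest PBS library. The means were 1602 ± 466 (SD, n = 3) and 222 ± 70.3 (SD, n = 3), a log2 fold change of 2.86 (SE 0.29, limma adjusted p = 0.000535), which is 7.25-fold and ranked 95 from the highest.

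Tgm2 was called higher under all 18 alternative settings, with log2 fold changes of 1.82 to 3.31. IL-33 replicate 1, whose Rn45s share lay near those of the PBS libraries, was 3.31 above the PBS mean on the log2 scale, and replicates 2 and 3 were 2.56 and 2.70 above it. Of the exonic bases of Tgm2, 21.8% overlap genes of the opposite strand, Gm20412 and Rprd1b together. Rprd1b was lower with IL-33, at 61.5 ± 25.4 against 117 ± 17.8 (SD, n = 3 each; log2 fold change -0.98, SE 0.30, limma adjusted p = 0.0387). The part of reads shared with these genes in the values of Tgm2 was not tested.

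Lgals3 was the most abundant of the 9 per length. It encodes galectin-3, a lectin that binds beta-galactosides and that macrophages and eosinophils express (chromosome 14, 47367751 to 47386160). With IL-33 its normalized counts were 2929, 3237 and 2861, and with PBS they were 2197, 1583 and 1872. The groups did not overlap, but the gap between the lowest IL-33 and the highest PBS library was modest. The means were 3009 ± 201 and 1884 ± 307 (SD, n = 3 each), a log2 fold change of 0.69 (SE 0.17, limma adjusted p = 0.0194), or 1.61-fold.

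The rise of Lgals3 depended on the scaling, and whether it was called depended also on single libraries. With a library left out its log2 fold change stayed at 0.57 to 0.80. The call was lost at 0.63 without IL-33 replicate 2 (limma adjusted p = 0.0783), 0.57 without PBS replicate 2 (adjusted p = 0.101) and 0.69 without PBS replicate 3 (adjusted p = 0.0868). In these fits 8.99%, 7.60% and 6.70% of all tested genes were called higher, against 17.4% with all libraries. In RPKM outside Rn45s the level of Lgals3 was 240 ± 23.2 with IL-33 and 201 ± 30.6 with PBS (SD, n = 3 each), rank 111 and 126 from the highest of 23011 genes with a length. Within a library, Tgm2 stood at 0.158 to 0.294 of Lgals3 per length with IL-33 and at 0.0330 to 0.0558 with PBS, so their ratio separated the groups whatever the scaling.

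The arginases differed in level. Both split arginine into ornithine and urea. Arg1, the cytosolic form and the best known marker of alternative activation (chromosome 10, 24915221 to 24927484), had 7, 3 and 1 reads with IL-33 and 15, 7 and 8 with PBS. As normalized counts these were 6.29, 4.61 and 1.69 with IL-33 and 11.6, 5.09 and 5.59 with PBS. The 2 groups overlapped, since IL-33 replicate 1 lay above PBS replicates 2 and 3. The 11 reads of the IL-33 group came to 0.700 RPM outside Rn45s (95% exact Poisson interval 0.349 to 1.25). The 30 of the PBS group came to 1.46 RPM (0.984 to 2.08). These intervals overlap, and the gene was near the limit of detection in both groups.

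Arg2, the mitochondrial form (chromosome 12, 79130777 to 79156301), was higher with IL-33. Normalized counts of Arg2 were 50.3, 36.9 and 42.4 with IL-33 and 22.5, 17.5 and 19.6 with PBS. The groups did not overlap. The means were 43.2 ± 6.76 and 19.9 ± 2.54 (SD, n = 3 each), a log2 fold change of 1.08 (SE 0.27, limma adjusted p = 0.0199), or 2.11-fold.

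The call on Arg2 was lost when any PBS library was left out, at 1.17 (adjusted p = 0.0503), 1.00 (adjusted p = 0.0900) and 1.07 (adjusted p = 0.0846) without PBS replicates 1, 2 and 3. Vti1b and an antisense gene overlap 28.1% of its exonic bases, and Vti1b itself was at 195 ± 25.7 with IL-33 and 201 ± 47.7 with PBS (SD, n = 3 each; log2 fold change -0.02, SE 0.23, limma adjusted p = 0.955). Arg2 exceeded Arg1 in every library: per length the ratio of Arg2 to Arg1 was 12.5 to 39.0 with IL-33 and 3.02 to 5.46 with PBS. The ranges did not overlap, with Arg1 at 15 reads or fewer. Nos2, the inducible nitric oxide synthase that competes for the same arginine, stayed below the minimum, with normalized counts of 0.899, 1.54 and 3.39 with IL-33 and 1.55, 2.18 and 2.10 with PBS.

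Chi3l3 was the only member called lower, although 1 IL-33 library lay among the PBS libraries. It encodes Ym1, a secreted chitinase-like lectin without chitinase activity, which forms crystals in inflamed mouse airways (chromosome 3, 106147554 to 106167564). The IL-33 libraries had 101.6, 27.7 and 27.1 normalized counts and the PBS libraries 153, 97.5 and 131. IL-33 replicate 1 lay just above PBS replicate 2, while replicates 2 and 3 were far below all of them. The means were 52.1 ± 42.8 and 127 ± 28.0 (SD, n = 3 each), a log2 fold change of -1.53 (SE 0.49, limma adjusted p = 0.0442).

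IL-33 replicate 1 was 0.30 below the PBS mean on the log2 scale and replicates 2 and 3 were 2.14 and 2.17 below it. Their Rn45s shares were 24.3%, 59.6% and 54.8%, and the part of these shares in the result was not tested. Without IL-33 replicate 1 the log2 fold change was -2.15 and remained called. Leaving out any other library ended the call: the adjusted p was 0.149 and 0.106 without IL-33 replicates 2 and 3, and 0.135, 0.0881 and 0.135 without PBS replicates 1, 2 and 3. With edgeR's quasi-likelihood test on the recovered reads the log2 fold change was -1.23 (adjusted p = 0.0793). Chi3l4, the near-identical neighbour known as Ym2, had 0 reads in all 6 libraries, which allows 0.0827 RPM. This limit covers reads assigned to Chi3l4, and the part of reads that match both genes was not tested.

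Retnla, which encodes the secreted cysteine-rich protein RELM-alpha (chromosome 16, 48842551 to 48844461), did not pass the test. With IL-33 it had 41.4, 58.4 and 118.6 normalized counts, and with PBS 33.4, 37.1 and 64.3. IL-33 replicate 3 was highest, and PBS replicate 3 exceeded IL-33 replicates 1 and 2. The means were 72.8 ± 40.6 and 44.9 ± 16.9 (SD, n = 3 each), a log2 fold change of 0.61 (SE 0.42, limma adjusted p = 0.288). Without IL-33 replicate 1 it was 0.94 and passed the test (adjusted p = 0.0405). The ratio of Chi3l3 to Retnla per length was 0.0839, 0.174 and 0.902 in the IL-33 libraries, in rising order, and 0.750 to 1.68 in the PBS libraries.

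Mrc1 encodes the mannose receptor CD206, an endocytic lectin of macrophages and dendritic cells (chromosome 2, 14229392 to 14332057). Normalized counts of Mrc1 were 14.4, 4.61 and 6.78 with IL-33 and 22.5, 5.09 and 13.98 with PBS. The groups overlapped, and replicate 1 was the highest of each group. The log2 fold change was -0.56 (SE 0.61, limma adjusted p = 0.493), with means of 8.59 ± 5.13 and 13.9 ± 8.71 (SD, n = 3 each). It was called under none of the 17 alternatives in which it had a value.

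Markers of macrophages were read beside these genes, since the members are best known from that cell. The list of 20 macrophage and monocyte markers summed to 25476 to 32562 normalized counts with IL-33 and 9351 to 12032 with PBS. Of the list 9 passed the minimum, 3 were called higher (Csf1r, Emr1 and Cd14) and 1 lower (Ccr2), against 17.4% higher and 14.4% lower among all tested genes. Emr1, the F4/80 antigen gene that mouse eosinophils also express, held most of the sum. Of the list, 10 markers of tissue macrophages, grouped after their values were seen (Mertk, Fcgr1, C1qa, C1qb, C1qc, Marco, Vsig4, Ms4a7, Cd163 and Timd4), summed to 4.61 to 27.1 with IL-33 and 9.09 to 19.4 with PBS, with Marco and Timd4 at 0 in every library. Csf1r, which encodes the receptor for the growth factor M-CSF, was at 4325 ± 528 and 1637 ± 152 (SD, n = 3 each; log2 fold change 1.40, SE 0.16, limma adjusted p = 0.000949). At equal totals Csf1r was at 0.36 and not called (adjusted p = 0.332). The part of these markers in the members' results was not tested.

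Markers of other cells the culture could hold were also summed. Dendritic cell markers came to 829 to 1252 with IL-33 and 422 to 671 with PBS, with Itgax the largest part in every library. Flt3, Xcr1, Zbtb46, Siglech, Cd209a and Clec9a stayed below 10 in every library. The means of Flt3, Xcr1, Siglech and Cd209a were lower with IL-33, and those of Zbtb46 and Clec9a were higher. Of 10 such markers 4 passed the minimum, and 3 of these were called higher (Itgax, H2-Ab1 and Batf3) and 0 lower. Among all tested genes, beside which the counts here are to be read, 17.4% were called higher and 14.4% lower. Mast cell and basophil markers came to 3169 to 4625 with IL-33 and 2255 to 3945 with PBS, a sum held mostly by Hdc. Of 8 tested 0 were called higher and 2 lower (Cpa3 and Ms4a2). Cpa3 and Ms4a2 stayed below 10 in every IL-33 library and passed the minimum through the PBS libraries only, which favours a call of lower. Neutrophil markers summed to 2403 to 3144 with IL-33 and 3020 to 3641 with PBS, and of 11 tested 0 were called higher and 4 lower. Lymphoid markers summed to 37.3 to 64.7 and 71.3 to 90.9, and of 2 tested 0 were called. The part of these cells in the members' results was not tested either.

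How much the members rose or fell turned on the scaling of the libraries. As scaled by the authors, the median log2 fold change of all tested genes was -0.03. Scaling to equal totals moved it to -1.06, with 2.50% of genes called higher and 50.1% lower. Scaling to equal totals without Rn45s moved it to -0.45, with 9.02% and 33.9%. Under these scalings 1 and 2 of the 7 members were called higher, and Chi3l3 stayed the member called lower.

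A rescaling shifts all genes by nearly the same amount, so distances from the median of all genes hardly depend on it by construction. On these, Tgm2 stood 2.88 to 2.89 above the median on the log2 scale, Il4ra 1.72 to 1.73, Arg2 1.11 to 1.13 and Lgals3 0.70 to 0.72. Chi3l3 stood at -1.50 to -1.49 and Mrc1 at -0.53 to -0.40. At equal totals Il4ra was at 0.66 (adjusted p = 0.0938), Arg2 at 0.08 (adjusted p = 0.884), and Lgals3 turned to -0.36 and Retnla to -0.42, neither past the test. Without Rn45s Arg2 was at 0.67 (adjusted p = 0.0792) and Lgals3 at 0.26 (adjusted p = 0.234). Il4ra kept its call there, and it kept it without each library in turn.

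**Figure D3:**
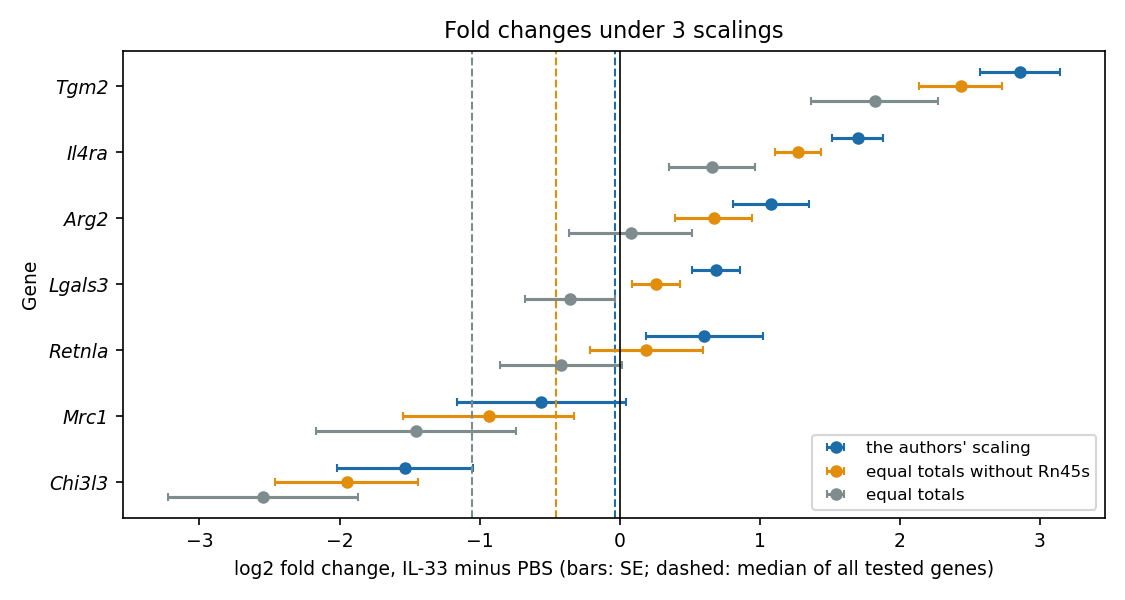
Log2 fold changes (IL-33 minus PBS, points, with SE bars) of the 7 tested members under 3 scalings of the libraries, with the median of all tested genes as dashed lines at -0.03, -0.45 and -1.06. Tgm2 stays above 0 throughout, Lgals3 and Retnla turn below 0 at equal totals, and the dashed lines shift with the genes, as a rescaling moves all genes nearly alike.

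The pathway upstream of the members was taken as a list of 27 other genes of IL-4 and IL-13 signalling, 25 of them tested. Like the members, this list and those below were chosen with earlier results of these data known, so their shares are descriptions only. Of the 25 genes, 13 (52.0%) were called higher, 1 lower and 11 in neither direction, against 17.4% higher and 14.4% lower among all tested genes. The median log2 fold change was 0.55 against -0.03. Without single libraries 9 to 14 were called higher, where 6.70% to 28.3% of all tested genes were. At equal totals 3 were called higher and 4 lower, where 2.50% and 50.1% of all tested genes were. Il13, which encodes a ligand of these receptors, had 132, 155 and 183 normalized counts with IL-33 and 13.2, 17.5 and 20.3 with PBS, without overlap, a log2 fold change of 3.14 (SE 0.26, limma adjusted p = 0.000246).

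Il4, the other ligand gene, had 187, 108 and 52.5 normalized counts with IL-33 and 164, 102 and 129 with PBS. Its groups overlapped, and its log2 fold change of -0.34 did not pass the test (SE 0.43, adjusted p = 0.557). Leaving out IL-33 replicate 1 gave -0.77 (adjusted p = 0.0463), and leaving out replicate 3 gave 0.13. Il1rl1, which encodes the IL-33 receptor ST2, was at a log2 fold change of 0.16 (adjusted p = 0.788).

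Cish, a cytokine-inducible inhibitor of JAK-STAT signalling, rose from 98.5 ± 16.4 to 680 ± 229 (SD, n = 3 each; log2 fold change 2.74). The related Socs1, Socs2, Socs3 and Socs5 rose by 1.14, 1.08, 1.40 and 1.25, and were taken up after their values were seen. The phosphatase gene Ptpn1 rose by 1.86 and the kinase gene Tyk2 by 1.70. Il13, Cish, Ptpn1, Tyk2 and Il2rg were called without each library in turn. At equal totals Tyk2 and Il2rg (0.66 each) were not called.

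Stat6, the transcription factor of the pathway, was at 4880 ± 658 with IL-33 and 3316 ± 215 with PBS (SD, n = 3 each), a log2 fold change of 0.55 (SE 0.16, limma adjusted p = 0.0325). The call held without IL-33 replicate 1 and was lost without each of the other 5 libraries, at adjusted p up to 0.141, and at equal totals Stat6 turned to -0.49. Ncoa1, a coactivator that binds STAT6, fell by 1.02 on the log2 scale, and lost its call without IL-33 replicate 2 or any single PBS library, at adjusted p up to 0.0957. It was the list's only gene called lower, and 5 were called lower without IL-33 replicate 1, where 28.2% of all tested genes were.

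Of 48 further genes used as markers of alternative activation or induced by IL-4, 47 were in the table and 24 were tested. Of the 24, 8 (33.3%) were called higher, 2 lower and 14 in neither direction, with a median log2 fold change of 0.51, against 17.4% higher and 14.4% lower among all tested genes. The genes named here are mostly regulators and growth factors with uses well beyond alternative activation. Cebpb, a transcription factor of myeloid cells, was at 2.75, Egr2 and Batf3, also transcription factors, were at 2.20 and 2.17, and the growth factor genes Hbegf and Vegfa were at 2.06 and 1.99. Cebpb, Egr2, Batf3 and Vegfa were called without each library in turn, but at equal totals Egr2 (1.16, adjusted p = 0.0887), Vegfa (0.96, adjusted p = 0.0910) and Hbegf (1.10, adjusted p = 0.121) were not called. Hbegf also lost its call without PBS replicates 2 (1.72, adjusted p = 0.0586) and 3 (1.94, adjusted p = 0.0658).

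The genes called lower on that list were Alox15 and Cdh1. Alox15, a lipoxygenase that eosinophils also express strongly, fell from 11542 ± 678 to 5925 ± 545 (SD, n = 3 each; log2 fold change -0.96), and kept its call without each library in turn. Cdh1, which encodes E-cadherin and is induced by IL-4 in macrophages, was at -2.25 with 3.92 ± 1.04 against 23.8 ± 10.4 (SD, n = 3 each), and lost its call without PBS replicates 2 (adjusted p = 0.0590) and 3 (adjusted p = 0.0681). With 4, 2 and 3 reads in the IL-33 libraries, Cdh1 passed the minimum through the PBS libraries only, which favours a call of lower. At equal totals the list had 2 genes called higher and 5 lower, where 2.50% and 50.1% of all tested genes were. Leaving out IL-33 replicate 1 gave 11 higher and 5 lower, where 28.3% and 28.2% of all tested genes were. Leaving out PBS replicate 2 or 3 gave 1 lower, where 3.82% and 3.36% of all tested genes were.

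**Figure D4:**
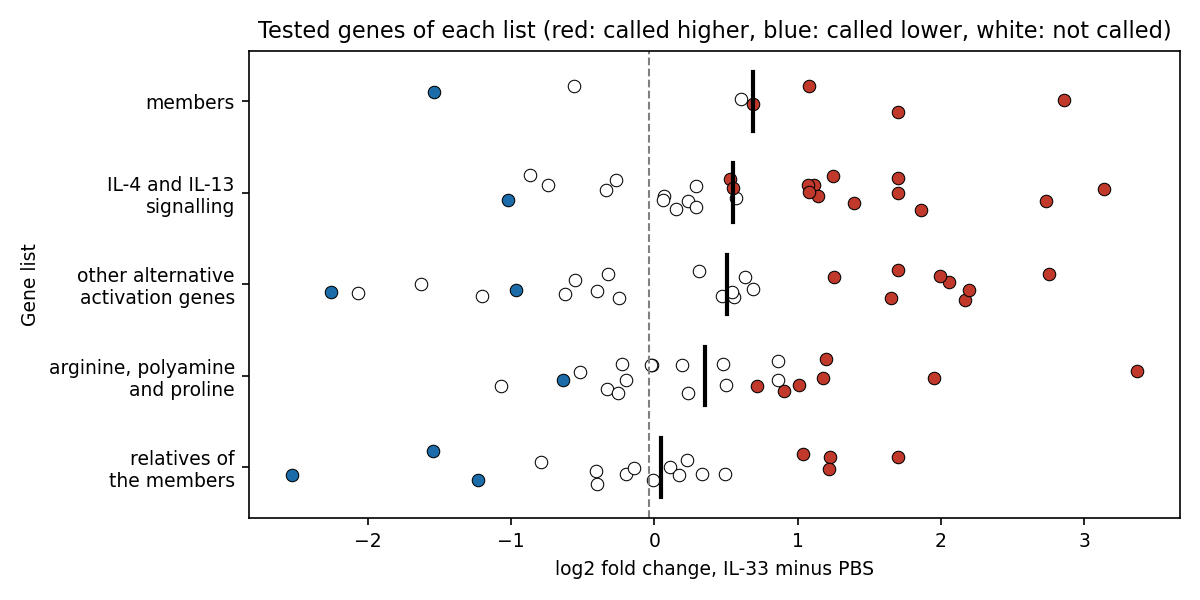
Log2 fold change of each tested gene of the members and of the 4 lists of related genes (points, red called higher, blue called lower, white not called), with the median of each list as a bar and that of all tested genes as a dashed line. The signalling list has 13 of 25 genes called higher and the list of relatives 4 of 18, as scaled by the authors, and 3 and 0 at equal totals. Of all tested genes 17.4% and 2.50% were called higher under these scalings.

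Downstream and around the arginases, a list of 34 genes of arginine, polyamine and proline metabolism was followed. Of 22 tested, 7 (31.8%) were called higher, 1 lower and 14 in neither direction, with a median log2 fold change of 0.36, against 17.4% higher and 14.4% lower among all tested genes. Smox, which oxidises spermine to spermidine, had the largest change, with 693 ± 181 normalized counts against 66.7 ± 21.9 (SD, n = 3 each), a log2 fold change of 3.37 (SE 0.30, limma adjusted p = 0.000329). Slc7a1, a cationic amino acid transporter that imports arginine, rose by 1.20. Smox and Slc7a1 were called without each library in turn, and at equal totals Smox was at 2.34 and Slc7a1 at 0.16, not called.

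Other genes of that list were less stable. Adc, the older symbol of Azin2, which encodes an inhibitor of the antizymes that curb polyamine synthesis, was at 1.95. It had 15, 12 and 14 reads with IL-33 and 8, 6 and 3 with PBS. Adc passed the minimum through the IL-33 libraries only, which favours a call of higher. Dohh, an enzyme of hypusine synthesis, was at 1.18, and Ddah2, which is named for the breakdown of methylated arginines, at 1.01. Adc and Dohh lost their calls when PBS replicate 2, PBS replicate 3 or IL-33 replicate 2 was left out, at adjusted p up to 0.0735 and 0.0636. Ddah2 was called only without IL-33 replicate 1 (adjusted p up to 0.127 without the others), and it turned to -0.017 at equal totals. Asl, the argininosuccinate lyase that makes arginine, was called lower, at -0.63, and was called only without IL-33 replicate 1 among the fits with a library left out (adjusted p up to 0.210). Odc1, the decarboxylase that takes ornithine into polyamine synthesis, was named after its values were seen: it was at 0.23 (adjusted p = 0.488). The list's count of higher genes fell to 3 when replicate 2 of either group was left out and to 2 without PBS replicate 3. Of all tested genes 8.99% (IL-33 replicate 2 left out), 7.60% (PBS replicate 2) and 6.70% (PBS replicate 3) were called higher. Without IL-33 replicate 1, 4 genes of the list were lower, where 28.2% of all tested genes were. At equal totals 1 gene was called higher and 9 lower, where 2.50% and 50.1% of all tested genes were.

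Relatives of the members by family were called about as often as other genes. Of 42 genes 41 were in the table and 18 were tested, of which 4 (22.2%) were called higher, 3 (16.7%) lower and 11 in neither direction, near the 17.4% and 14.4% of all tested genes, with a median log2 fold change of 0.05. Il2rg is among the 4. Chi3l1, another chitinase-like gene, was at 126 ± 27.7 with IL-33 and 52.9 ± 10.3 with PBS (SD, n = 3 each), a log2 fold change of 1.23 (SE 0.26, limma adjusted p = 0.0111), the opposite direction to Chi3l3. It lost its call without PBS replicate 3 (1.08, adjusted p = 0.0625) and was at 0.20 at equal totals. Lgals1, the gene of galectin-1, was at 62.2 ± 38.2 and 163 ± 9.69 (SD, n = 3 each), a log2 fold change of -1.54, against the rise of Lgals3. Its call was lost without IL-33 replicate 2 or any single PBS library, at adjusted p up to 0.0778.

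Among receptor chains related to Il4ra, Il5ra, whose product binds IL-5, fell from 275 ± 41.0 to 50.7 ± 23.9 (SD, n = 3 each; log2 fold change -2.53), and kept its call without each library in turn. Il3ra and Csf2ra, the alpha chains for IL-3 and GM-CSF, were at 1.22 and 1.04, and each was called without IL-33 replicate 1 and not without any of the other 5 libraries, at adjusted p up to 0.153 and 0.157. Ctbs, a lysosomal chitobiase, was at -1.23 and lost its call without IL-33 replicate 2 or any single PBS library, at adjusted p up to 0.132. The count of relatives called higher fell to 2 when any of PBS replicates 1 and 2 and IL-33 replicates 2 and 3 was left out, and to 1 without PBS replicate 3. That of relatives called lower was 5 without IL-33 replicate 1, and 1 when IL-33 replicate 2 or a PBS library was left out. Of all tested genes, 10.7% and 7.60% were called higher without PBS replicates 1 and 2. Without IL-33 replicates 2 and 3 these shares were 8.99% and 13.99%, and without PBS replicate 3 the share was 6.70%. Called lower were 28.2% without IL-33 replicate 1, and 3.36% to 7.26% without IL-33 replicate 2 or a PBS library. At equal totals 0 relatives were higher and 10 lower, where 2.50% and 50.1% of all tested genes were.

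Among themselves, the 4 members that rose had similar profiles over the 6 libraries. Pearson r of log2(normalized count + 1) was 0.910 to 0.980 between pairs of Il4ra, Tgm2, Arg2 and Lgals3, as a description, since all share the same 6 libraries and the difference between groups. Chi3l3 and Mrc1 had an r of 0.74, and Chi3l3 and Retnla an r of -0.72.

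For each tested member the most similar of 7379 genes were found by the same r over 6 libraries. Csf1r (0.999) and Ciao1 (0.998) were nearest to Il4ra, and Nfkbia (0.998), the NF-kB inhibitor gene, was among the 2 nearest to Tgm2. Dusp3 and Tlcd2 (0.995 each) were nearest to Lgals3, Hnrnpk and Tubgcp4 (0.998 each) to Arg2, and Nrip1 and Asb8 (0.996 each) to Chi3l3. Acads (0.989) and Herpud2 (0.984) were nearest to Retnla, and Lpl (0.983) and Gna15 (0.939) to Mrc1. With 6 libraries and 7379 genes, r near 1 is found for many genes.

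By level, the members spanned several orders of magnitude. In RPKM outside Rn45s, the order with IL-33 was Lgals3, Tgm2 at 52.0 ± 17.6, Il4ra at 34.0 ± 3.70, Retnla at 17.7 ± 8.84, Chi3l3 at 4.85 ± 4.21, Arg2 at 4.50 ± 0.878, Il13ra1 at 0.323 ± 0.182, Arg1 at 0.285 ± 0.169 and Mrc1 at 0.203 ± 0.131 (SD, n = 3 each). Of neighbours in this order, Chi3l3 and Arg2, Il13ra1 and Arg1, and Arg1 and Mrc1 differed by less than their SDs. With PBS, Lgals3 was followed by Chi3l3 at 15.5 ± 3.27, Retnla at 15.0 ± 5.84, Il4ra at 14.01 ± 1.37 and Tgm2 at 9.54 ± 2.87, of which the first 3 lay within their spread (SD, n = 3 each). Then came Arg2 at 2.76 ± 0.321, and Arg1, Mrc1 and Il13ra1 at 0.661 ± 0.313, 0.431 ± 0.266 and 0.340 ± 0.0125 (SD, n = 3 each), again within their spread. Tgm2 moved from rank 4255 to rank 869 of 23011 genes, and Il4ra from 3225 to 1333. Within a library Tgm2 stood at 1.11 to 2.31 of Il4ra per length with IL-33 and at 0.466 to 0.821 with PBS, so that the order of the 2 genes was reversed in every library.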

How the data were processed

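RNA from 6 libraries of mouse bone marrow-derived eosinophils was depleted of ribosomal RNA and sequenced after directional library preparation, per the labels' protocols. The authors deposited 1 table of gene counts per library after scaling, a signal equal to whole reads times 1 constant per library. HISAT2, HTSeq, DESeq2 and genome build mm10 are named, per the submitters' processing notes; their versions, the annotation and the counting's strand setting are not given in the sources read. Reads were recovered as whole multiples of each library's smallest value (100% of values whole within 0.1 of a read), with depths of 8218303 to 10785521 reads.

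Groups followed the labels. Differences, IL-33 minus PBS, were tested two-sided in R 4.3.3 with the package limma 3.58.1 (lmFit and a trended eBayes) on log2(normalized count + 1), a scale that understates changes of low genes, over genes with a value of at least 10 in at least 3 libraries. A gene that reaches this value in a single group only enters the test through that group, which favours a call in its direction. P-values were Benjamini-Hochberg adjusted over all 10544 genes, and a gene was called under 0.05. The members and gene lists were chosen with earlier results of these data known. All members were named; of each list up to 5 called genes per direction by size of the log2 fold change were named; Il4, Il13, Il2rg, Stat6, Nos2, Chi3l4, Il1rl1 and Csf1r were always named, as were the 2 genes most like each tested member among those with a mean of at least 50, of which 1 is not reported here. Levels per kb used the union of exons in GENCODE vM21, which matched 23011 genes.

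Alternatives were other pseudocounts (0.5 and 8), no filter and a filter at 50, TMM scaling, equal totals with and without Rn45s, no mean-variance trend, edgeR 4.0.16 and DESeq2 1.42.0 on the recovered reads (edgeR called 1909 genes higher and 1479 lower, DESeq2 2238 and 1624), a replicate block, each library left out, and IL-33 replicate 1 alone against PBS. The fit was tested on simulated data without Rn45s, which do not cover the unequal Rn45s shares of the libraries.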

Additional observations from a re-analysis of the deposited data

How the results depend on the processing

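Over the 7 tested members and 18 alternatives, 100 values kept direction and side of the threshold, 19 lost the call, 1 gained it and 4 reversed. For 29 other named genes these were 426, 82, 2 and 8. Tgm2 kept its call in all 18. At equal totals Il4ra was 0.66, Arg2 0.078, Lgals3 -0.36 and Retnla -0.42, and members called higher were 1. The lists there had 3 higher and 4 lower (signalling), 2 and 5 (alternative activation), 1 and 9 (arginine) and 0 and 10 (relatives). Of all tested genes 2.50% were called higher at equal totals and 50.1% lower. Ddah2 (-0.017), Csf2ra (-0.0010), Stat6 (-0.49) and Il1rl1 (-0.88) reversed there. Without Rn45s Arg2 was 0.67, Lgals3 0.26 and Il1rl1 -0.26, and members called higher were 2. Genes lower were 3 on the signalling and arginine lists, and relatives were 2 higher and 5 lower. Of all tested genes 9.02% were called higher without Rn45s and 33.9% lower. Chi3l3 was not called with no filter (-1.53), no trend (-1.53) or edgeR (-1.23), which left 0 members lower. No filter and a pseudocount of 8 left 0 arginine genes lower, no trend left 2 relatives higher, DESeq2 called 2 signalling genes lower, and a filter at 50 left 1 alternative activation gene lower. By construction that filter left Arg2, Mrc1 and others untested.

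With IL-33 replicate 1 alone, a lone sample assumed to vary like PBS, Chi3l3 was -0.30, Retnla -0.057, Mrc1 0.25 and Il4 0.53. With a library left out, members called ran from 2 to 5 higher and 0 to 1 lower; log2 fold changes ran from 0.97 to 1.19 for Arg2, -2.15 to -1.22 for Chi3l3, 0.19 to 0.94 for Retnla and 0.57 to 0.80 for Lgals3. Signalling genes ran from 9 to 14 and 0 to 5, alternative activation genes from 6 to 11 and 1 to 5, arginine genes from 2 to 8 and 0 to 4, and relatives from 1 to 4 and 1 to 5. Il4 ran from -0.77 to 0.13 and Il1rl1 from -0.37 to 0.60, each reversing in 1 fit. The cause was not tested. Shares of all genes called ran from 6.70% to 28.3% higher and 3.36% to 28.2% lower in these fits.

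The replicate numbers showed no clear pairing of the libraries: deviations of same-numbered libraries from their group means correlated at 0.05, 0.24 and -0.16. Those of libraries with unlike numbers correlated at -0.28 to 0.24. With 3 libraries in each group, these values cannot exclude a pairing. With the replicate block, 4 members were called higher and 1 lower, as without it, 0 arginine genes were lower, and all tested genes called were 1620 higher and 1298 lower. Depth limits Il13ra1, Arg1 and Mrc1, at 29 reads or fewer in a library.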
